A study of Mus musculus with 14 samples.

Results

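The voltage-gated potassium channel and HCN channel genes of the mouse spinal cord were examined as a group. Members were all genes of the RNA-seq gene tables whose symbols begin with Kcna, Kcnb, Kcnc, Kcnd, Kcnf, Kcng, Kcnh, Kcnq, Kcns, Kcnv or Hcn followed by a number. This gave 43 of 19215 genes, of which 38 are reported here, and all counts over members below are over these 38. Of the 13189 tabulated cassette exons (exons that are either included or skipped), 7 lay in 6 of the reported genes. The study mapped RNA bound by NOVA, a neuronal splicing factor that recognises YCAY motifs, by HITS-CLIP, in which protein and RNA are crosslinked by ultraviolet light and the bound RNA fragments are sequenced as tags. For motoneurons (MN CLIP), GFP-tagged NOVA2 was precipitated with anti-GFP antibodies from 3-month-old C57BL/6 mice hemizygous for Chat:GFP-Nova #6 or Chat:GFP-Nova #17, lines made with a bacterial artificial chromosome, with 4 libraries a line and several spinal cords pooled per library. For whole spinal cord (WSC CLIP), endogenous NOVA was precipitated with anti-NOVA serum from 4 wild type C57BL/6 mice of the same age, 1 mouse per library. The transgene is driven by the Chat promoter, and Chat marks cholinergic neurons, of which motoneurons are one class. MN and WSC libraries also differ in antibody, in the tagged protein and in pooling, so these cannot be told apart from cell type. Poly(A) RNA-seq came from the spinal cords of 1 male and 1 female 12-week-old Tg(SOD1)2Gur/J mice, which carry the SOD1 WT transgene on a B6/SJL background, so no RNA level is from the CLIP strain.

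Voltage-gated potassium channels are tetramers that open on depolarisation and repolarise the neuron. Shaker (Kcna) channels set firing threshold and sit beside the nodes of myelinated axons, Shab (Kcnb) channels cluster on motoneuron somata, Shaw (Kcnc) channels allow fast spiking, and Shal (Kcnd) channels carry the transient A-type current. Kcnf, Kcng, Kcns and Kcnv subunits are electrically silent alone and modify Shab channels, Kcnq channels carry the M-current, Kcnh genes encode the EAG, ERG and ELK channels, and HCN channels open on hyperpolarisation and carry the inward current Ih.

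The sequences below are the windows or sites with the most tags in 6 of the genes, and cassette exons follow further on. None of them held most of the tags of its gene. All are from the mm9 genome, written 5′ to 3′ on the strand of the gene, with every YCAY in capitals (a CAT or CAC after a C or T, searched on the gene's strand only, since NOVA binds RNA). Motifs may overlap by a base or more.

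The first sequences are tag-rich sites of 3 members that differed between MN and WSC or were bound mainly in introns. Each is the 100-nt intronic window of a fixed grid with the most tags of the gene in both groups (Kcnb2, chr1:15372501-15372600), in WSC (Kcnq3, chr15:65999901-66000000) or in MN (Kcnd2, chr6:21269201-21269300).
Kcnb2: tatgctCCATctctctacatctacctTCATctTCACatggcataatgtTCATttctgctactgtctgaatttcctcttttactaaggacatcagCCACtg
Kcnq3: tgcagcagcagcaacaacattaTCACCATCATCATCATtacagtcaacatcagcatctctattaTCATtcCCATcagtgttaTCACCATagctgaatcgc
Kcnd2: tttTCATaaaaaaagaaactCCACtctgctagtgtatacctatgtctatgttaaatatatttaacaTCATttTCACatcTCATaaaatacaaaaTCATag
These windows held 5, 9 and 6 YCAY. The fullest windows of the other group held fewer, with 2 YCAY for Kcnq3 in MN and 3 for Kcnd2 in WSC, numbers that 50.3% and 25.5% of windows reached. Among 35285 windows of 100 nt across the 19 members tested below, 79.8% held at least 1, and 3.71%, 0.0850% and 1.21% held as many as the respective window. The fullest WSC window held 2 or more YCAY in all 19 members and 5 or more in 7, with a median of 3. For the fullest MN windows the median was 4, and that of Kcnh5 held 0. Of the fullest windows, 14 in WSC and 9 in MN lay in exons. The 35285 windows span whole genes, so their shares are not matched for location.

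Shorter sites are shown for the pacemaker channel gene Hcn2, the Shaw gene Kcnc1 and the silent subunit gene Kcng1, whose tags were concentrated in a few places. Each is the 30 nt with the most WSC tags of its gene, all in UTRs (Hcn2, chr10:79198622-79198651; Kcnc1, chr7:53687614-53687643; Kcng1, chr2:168086017-168086046).
Hcn2: gccggcttcccgctgcccctggcaagctca
Kcnc1: atctcagtTCATttcaaagcctggaaacca
Kcng1: CCACcccaaatgtgcctgatcTCATctgaa
These sites held 0, 1 and 2 YCAY. Of 117669 windows of 30 nt across the tested members, 37.8% held at least 1 and 8.47% held 2 or more.

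By RNA-seq, 28 of the 38 members had a mean RPKM (reads scaled to exon length and to the library total) of at least 1 in WSC, and 11 reached 10. Over all 19215 genes, 11940 had a mean of at least 1. Only the spread between these 2 animals, which differ in sex, bounds each level. The 4 highest members together made up 58.9% of all member RPKM. Highest was Hcn2 (NCBI gene 15166, chr10:79179379-79198853), at 110.3 RPKM in the male and 120.4 in the female library. The Shaker genes Kcna1 at 86.0 and 84.8 and Kcna2 at 58.8 and 51.1 came next, with no overlap between neighbours in the top 3. The ERG gene Kcnh2 had 33.0 and 31.1 RPKM, and Kcng4, a silent subunit, had 30.7 and 33.3, so these neighbours in rank overlapped. The EAG genes Kcnh1 and Kcnh5 had 4.74 and 4.22, and 4.89 and 3.60.

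**Figure D1:**
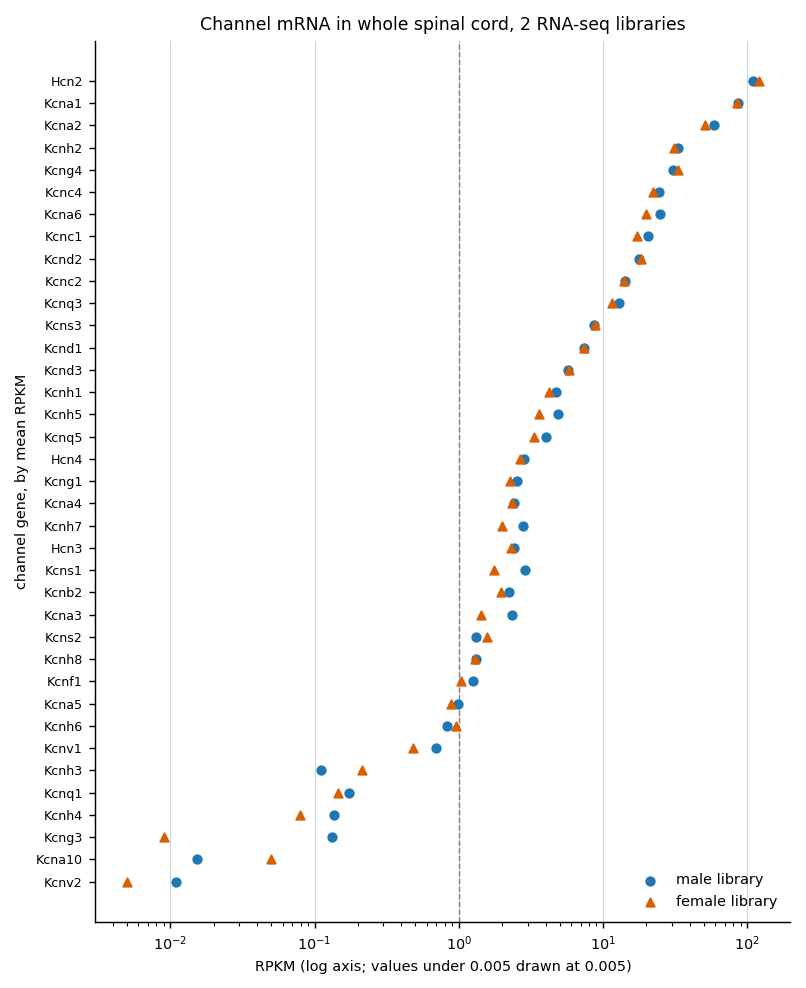
RPKM of the 37 channel genes with reads in the male (circles) and female (triangles) RNA-seq libraries on a log axis, ordered by mean, with a dashed line at 1 RPKM. Hcn2, Kcna1 and Kcna2 stand above the rest, and 28 genes have a mean to the right of the line. The female point of Kcnv2, which had 0 reads, is drawn at the left end of the axis.

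Subfamilies were led by one or a few genes. The 8 Shaker genes summed to 168 ± 10.6 RPKM (SD, n = 2), with Kcna6 at 24.9 and 19.9 in the male and female library, and 5 of the 8 reached a mean of 1. The 3 HCN genes reported summed to 120.4 ± 6.94, of which Hcn4 contributed 2.82 and 2.64 and Hcn3 2.40 and 2.29. Of the Shaw genes, Kcnc4 had 24.6 and 22.3, Kcnc1 20.4 and 17.3 and Kcnc2 14.2 and 13.9. Among the Shal genes, Kcnd2 had 17.9 and 18.3, Kcnd1 7.38 and 7.35 and Kcnd3 5.76 and 5.81. The M-current gene Kcnq3 had 12.9 and 11.5 and Kcnq5 4.02 and 3.34. The Shab gene Kcnb2 was low per length, at 2.24 and 1.95. Kcnf1 was the lowest member above 1, at 1.26 and 1.04. The highest silent subunit of the Kcns group was Kcns3 at 8.65 and 8.81, and Kcnv1 led the Kcnv pair at 0.698 and 0.478.

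The 10 members with a mean under 1 RPKM were Kcna5, Kcnh6, Kcnv1, Kcnh3, Kcnq1, Kcnh4, Kcng3, Kcna10, Kcnv2 and Kcna7. Kcna7, a muscle Shaker gene, had 0 reads in both libraries, while 72006019 and 65625173 reads fell on genes. Kcng3 had 32 reads in the male and 2 in the female library. Kcnq1, known from heart and epithelia, had 38 and 29 reads.

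The female library was lower than the male for 22 of the 28 members at a mean of 1 RPKM or more (78.6%), whereas 51.3% of all 11940 genes at that level were lower. The median log2 difference, female minus male, was -0.12 over members and -0.01 over all those genes. Furthest from 0 among these members were Kcns1, a silent subunit, at 2.86 and 1.75 RPKM in the male and female library (log2 difference -0.68), and Kcna3, a lymphocyte and neuronal Shaker channel, at 2.33 and 1.42 (-0.67). Kcns2 was highest in the other direction, at 1.32 and 1.57 (0.23). With 1 library a sex, no test was possible, and sex, animal and library preparation cannot be told apart. In such bulk tissue, fewer cells of a type and less RNA per cell cannot be told apart either. The cholinergic marker list, 7 genes including Chat, summed to 134 RPKM in the male and 167 in the female library and the list for other spinal neurons to 295 and 288. Their part in the channel levels was not tested.

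Several auxiliary subunits were abundant. Of 16 listed, 12 reached a mean of 1 RPKM, beside 11940 of all 19215 genes. Kcnab2, a cytoplasmic partner of Shaker channels, had 198 and 167 RPKM, and Kcnab1 had 57.7 and 63.7. Pex5l, the TRIP8b protein that binds HCN channels, had 89.1 and 89.9. Of the Shal partners, Dpp6 had 63.4 and 53.9 and Dpp10 had 31.9 and 29.7. Kcne1 and Kcne3, partners of Kcnq1, had means of 0.0143 and 0.0117 RPKM.

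In CLIP, values are given as CPM, tags scaled by the TMM-corrected library total over tested genes. MN libraries held 65961 to 871804 tags and WSC libraries 2213104 to 6095995, so MN values carry more counting error. Between 33.3% and 46.6% of gene tags touched annotated exons in MN libraries, against 60.7% to 66.0% in WSC libraries, so whole-gene results are given beside exonic and intronic ones. Exonic and intronic values are scaled to the tags of that class in all genes, so they can depart from the whole-gene value through scaling alone. Of the motoneuron markers with enough tags, Chat, Slc5a7 and Chodl were all higher in MN (log2 fold changes of 3.09, 2.22 and 2.49), and 6 of 6 markers of other spinal neurons were lower, from -4.35 for Slc6a5 to -2.13 for Gad2. Among the latter, Slc32a1, Gad1 and Pax2 had enough tags only through WSC libraries. Glial transcripts stayed in MN libraries, with Mbp at 354 ± 185 (SD, n = 8) CPM in MN and 445 ± 31.4 (SD, n = 4) in WSC. Of the glial markers tested, 1 of 3 oligodendrocyte and 3 of 3 astrocyte genes were lower in MN and 0 were higher. The marker lists for microglia, endothelium, sensory ganglion and muscle had too few tags for a test. The part of cell composition in the channel results was not tested.

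Across all 38 members, WSC tags touching exons, per kilobase of exon, ranked much like mean RPKM (Spearman's rho 0.91 across genes, which are not independent replicates and where both measures share the exon length).

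NOVA tags on channel genes changed in both directions between MN and WSC. Of the 38 members, 19 had enough tags to be tested, and at an adjusted p of at most 0.01 (edgeR quasi-likelihood test), 5 were higher and 7 lower in MN. Over all 4334 genes tested, 27.6% were higher and 28.8% lower, against 26.3% and 36.8% of the members. The median log2 fold change, MN minus WSC, was -0.20 over the tested members and -0.02 over all genes. For 6 of the 19 members (Kcnb2, Kcnq3, Hcn2, Kcnh2, Kcnc1 and Kcna2) the MN and WSC libraries did not overlap, a share close to the 28.9% found over all tested genes. The called genes were Kcnb2, Kcng1, Kcnh1, Kcnq3 and Kcnq5 on the higher side and Hcn2, Kcnh2, Kcnc1, Kcnh7, Kcna2, Kcns3 and Kcnc2 on the lower side. Of these, Kcng1 had enough tags for a test only through its MN libraries, where it was higher. Per the study's methods, MN replicates were separate pools of cords and WSC replicates separate mice.

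**Figure D2:**
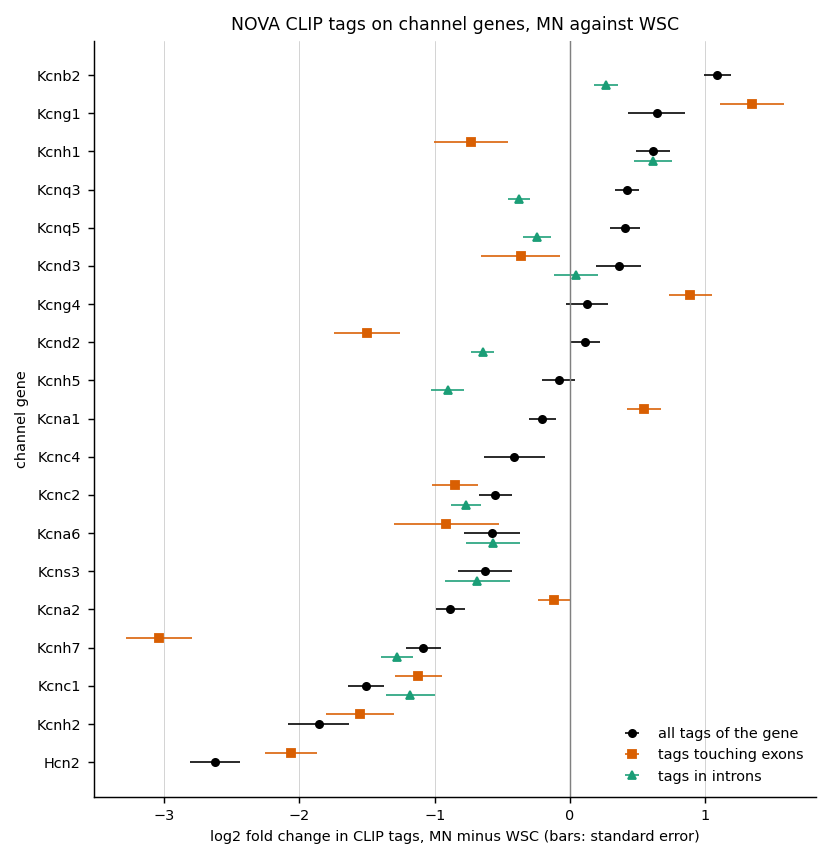
Log2 fold change in NOVA CLIP tags, MN minus WSC, with standard error, for the 19 tested channel genes using all tags of the gene (circles), tags touching exons (squares) and tags in introns (triangles). Kcnb2 lies right of 0 and Hcn2, Kcnh2, Kcnc1, Kcnh7 and Kcnc2 lie left of 0 on every measure available, while the symbols of Kcnh1, Kcnq3 and Kcnd2 fall on both sides.

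Hcn2, the HCN gene with the most RNA among those reported, was far lower in MN. It had 31.8, 87.2, 50.5 and 66.9 CPM in line 6, 46.2, 38.6, 140 and 42.5 in line 17, and 360, 296, 286 and 386 in WSC. No MN library reached the lowest WSC library. Tags were 6.16-fold fewer in MN (log2 -2.62 ± 0.19 SE, adjusted p = 1.9e-12 by edgeR), and -2.06 on exonic tags. Of all WSC tags of Hcn2, 33.6% had their midpoint in the 30 nt of UTR printed above, as did 21.4% of the 70 MN tags. Its intronic tags were too few to test. Hcn4, a slow HCN form, had 9 tags over all MN libraries and 438 over WSC and did not pass the filter on low counts with all libraries. With either line alone Hcn4 passed only through WSC libraries, where it was higher, so its entry was not independent of its direction. It was called lower with line 17 alone (-3.11, adjusted p = 7e-05 by edgeR) and missed the threshold with line 6 alone (-1.63, adjusted p = 0.011).

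In the EAG and ERG group, Kcnh2 (gene 16511, chr5:23825407-23857422) had 15.9, 105, 32.5 and 60.2 CPM in line 6, 0, 106, 69.9 and 42.5 in line 17, and 185, 209, 157 and 149 in WSC. These groups did not overlap, and the gene was 3.63-fold lower in MN (log2 -1.86 ± 0.23 SE, adjusted p = 5.1e-08 by edgeR). Kcnh7, a second ERG gene, ranged from 154 to 472 with a median of 282 in MN and from 465 to 534 in WSC, with 7 of 8 MN libraries below every WSC library. Its log2 fold change was -1.08 ± 0.13, and it reached -3.03 on exonic and -1.28 on intronic tags, both called. Of its 330 MN tags, 8.79% touched exons, so it may have passed the exonic filter only through WSC libraries, where it was higher. Kcnh1, an EAG channel, was higher over the whole gene (log2 0.61 ± 0.13, adjusted p = 0.00014) and in introns (0.61), whereas its exonic value was -0.73 (adjusted p = 0.024). Only 12.1% of MN tags on Kcnh1 touched exons, against 50.5% in WSC. Without line 17 replicate 4 the whole-gene value was 0.48 and was no longer called (adjusted p = 0.017). Kcnh5, the other EAG gene, was not called over the whole gene (log2 -0.08, adjusted p = 0.57). Introns held 85.9% of its MN and 84.2% of its WSC tags. Relative to the intronic tags of all genes it was lower in MN (-0.90, adjusted p = 2e-07).

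Of the Shaw genes reported, 2 of 3 were lower in MN over the whole gene. Kcnc1 (gene 16502, chr7:53651867-53693745) had 143, 122, 148 and 154 CPM in line 6, 115, 222, 297 and 155 in line 17, and 420, 541, 413 and 446 in WSC. The groups did not overlap, and the gene was 2.84-fold lower (log2 -1.51 ± 0.13 SE, adjusted p = 1.5e-10 by edgeR), with -1.12 on exonic and -1.18 on intronic tags. In Kcnc1, 1 UTR window of 100 nt (chr7:53687601-53687700) with 8 YCAY, around the site printed above, held 24.5% of MN and 12.3% of WSC tags. Kcnc2 was lower by less (log2 -0.55 ± 0.12, adjusted p = 0.00021), and 1 MN library lay above all WSC libraries. With line 17 alone its value was -0.28 (adjusted p = 0.13), and with line 6 alone -0.83. Kcnc4 was not called (log2 -0.41 ± 0.23, adjusted p = 0.11).

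**Figure D3:**
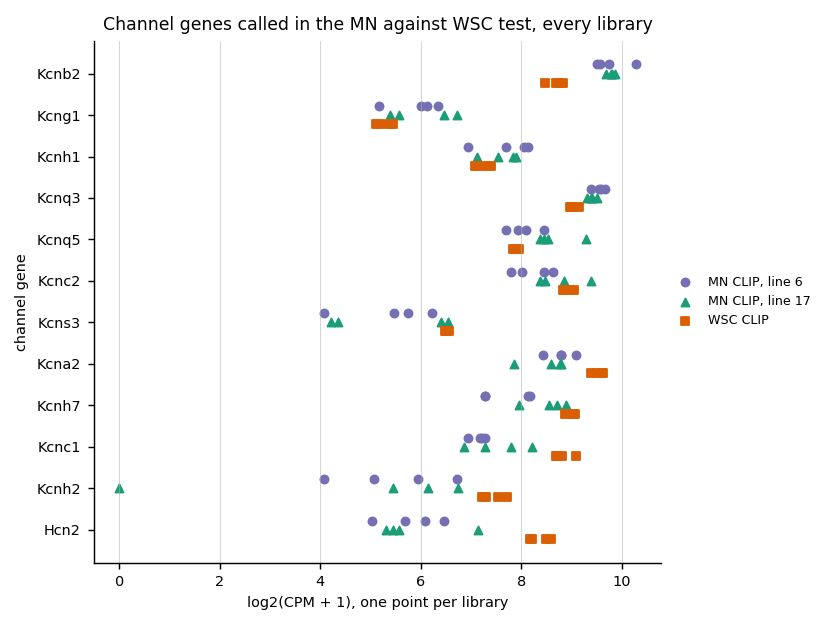
Log2(CPM + 1) of each CLIP library for the 12 called channel genes, with MN line 6 as circles, MN line 17 as triangles and WSC as squares, 4 libraries each. Kcnb2 and Kcnq3 in MN lie wholly above WSC and Hcn2, Kcnh2, Kcnc1 and Kcna2 wholly below it, and the line 17 point of Kcnh2 at 0 is a library without a tag.

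Among Shaker genes, Kcna2 (gene 16490, chr3:106904485-106909797) ranged from 231 to 541 CPM in MN, with a median of 439, and from 665 to 792 in WSC, without overlap. It was 1.85-fold lower (log2 -0.89 ± 0.11 SE, adjusted p = 4.4e-08 by edgeR). Nearly all its tags touch exons in both groups, and among exonic tags alone, which are scaled to the exonic tags of all genes, the value was -0.12 (adjusted p = 0.41). Kcna1 was not called over the whole gene (log2 -0.20 ± 0.10, adjusted p = 0.070) and was higher on exonic tags (0.55, adjusted p = 0.0006). The sign of its value thus turned with the scaling. Kcna6 had log2 -0.58 (adjusted p = 0.017), and it passed the threshold without line 6 replicate 1 (-0.71), without line 17 replicate 1 (-0.69) or without line 17 replicate 2 (-0.65). Without line 17 replicate 4 it fell to -0.17 (adjusted p = 0.49), and leaving out any of the other 8 libraries gave -0.64 to -0.48 and no call. Without the filter on low counts both Kcna1 (-0.43) and Kcna6 (-0.76) were called lower. The remaining Shaker genes were too low to test with all libraries. Kcna3 had 1 tag over all 8 MN libraries and 30, 56, 51 and 29 in WSC, and Kcna4 had 8 tags over MN and 386 over WSC. With each line alone, both were called lower, but they passed the filter only through WSC libraries, where they were higher.

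The Shab gene Kcnb2 (gene 98741, chr1:15302533-15701710) had 730, 1238, 858 and 756 CPM in line 6, 877, 889, 822 and 927 in line 17, and 356, 415, 454 and 429 in WSC. The groups did not overlap, and the gene was 2.13-fold higher in MN (log2 1.09 ± 0.10 SE, adjusted p = 4.6e-10 by edgeR). Introns held 98.6% of its MN and 97.5% of its WSC tags, and among intronic tags alone its value was 0.27 (adjusted p = 0.016), which missed the threshold. Of the silent subunits, Kcng1 was higher (0.64 ± 0.21, adjusted p = 0.0099), with exonic tags at 1.34. In both fits it passed the filter on low counts only through MN libraries, so its entry was not independent of its direction. Without the filter Kcng1 was not called (0.46, adjusted p = 0.097 by edgeR). The UTR window around the site printed above held 19 of 78 MN and 124 of 496 WSC tags. The whole-gene call of Kcng1 lasted only without line 6 replicate 2, line 17 replicate 1 or line 17 replicate 4, and leaving out any of the other 9 libraries gave 0.55 to 0.69 and no call. Kcns3 was lower (-0.62 ± 0.20, adjusted p = 0.0076), a call lost without any one of line 6 replicates 1, 2 and 3 or line 17 replicates 2 and 3, where it ranged from -0.63 to -0.54. Leaving out line 17 replicate 4 took it to -1.14. Kcng4 gave 0.13 (adjusted p = 0.48) over the gene and 0.89 on exonic tags (adjusted p = 3.8e-05).

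The M-current genes tested were bound mostly in introns. Kcnq3 (gene 110862, chr15:65826733-66117786) ranged from 636 to 810 CPM in MN, with a median of 703, and from 503 to 563 in WSC, without overlap (log2 0.42 ± 0.09 SE, adjusted p = 0.00012 by edgeR). Introns held 99.1% of its MN and 95.8% of its WSC tags, and on intronic tags alone it was lower in MN (-0.38, adjusted p = 0.00023). The whole-gene call was lost without the filter on low counts (0.22, adjusted p = 0.16), with line 17 alone (0.33, adjusted p = 0.040) and with WSC tags thinned to MN depth (0.32, adjusted p = 0.055). Kcnq5 showed the same turn, from 0.41 (adjusted p = 0.0025) over the gene to -0.24 (adjusted p = 0.067) in introns, and its call was lost without line 6 replicate 3 (0.37) or WSC replicate 1 (0.35) and without the filter on low counts (0.22, adjusted p = 0.21). With line 6 alone the value of Kcnq5 was 0.12 and with line 17 alone 0.69.

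The Shal genes were not called over the whole gene. Kcnd2 ranged from 1231 to 1883 CPM in MN and from 1229 to 1533 in WSC (log2 0.11 ± 0.11, adjusted p = 0.36), but on exonic (-1.50) and intronic tags (-0.65) taken separately it was lower in MN, with both called. Its introns held 98.5% of MN and 92.8% of WSC tags, and both of these values are relative to the tags of that class in all genes. Only 1.45% of its 1999 MN tags touched exons, so it may have passed the exonic filter only through WSC libraries, where it was higher. Kcnd3 gave 0.36 ± 0.17 (adjusted p = 0.057), and without line 17 replicate 4 it was called at 0.62 (adjusted p = 0.0035).

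On exonic tags 13 members were tested, of which 3 were higher (Kcna1, Kcng1 and Kcng4) and 6 lower in MN (Hcn2, Kcnc1, Kcnc2, Kcnd2, Kcnh2 and Kcnh7), against 23.9% and 23.6% of 2175 genes. Kcng1 entered this fit only through MN libraries, and Kcnd2 and Kcnh7 may have entered it only through WSC libraries, as given above. On intronic tags 12 were tested, of which 1 was higher (Kcnh1) and 6 lower (Kcnc1, Kcnc2, Kcnd2, Kcnh5, Kcnh7 and Kcnq3), against 12.9% and 14.1% of 2551 genes. The sign of the whole-gene value differed from the intronic one for 3 of 12 members (Kcnd2, Kcnq3 and Kcnq5) and from the exonic one for 4 of 13 (Kcna1, Kcnd2, Kcnd3 and Kcnh1).

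The 19 untested members had at most 17 tags over all MN libraries. For them, a difference was mostly not detectable at this depth. Without the filter on low counts, Kcna3, Kcna4, Hcn4 and Kcnh8 were also lower in MN, with adjusted p from 8.8e-09 (Hcn4) to 0.00071 (Kcnh8). Their MN counts were 1, 8, 9 and 7 tags.

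Between the transgenic lines no gene differed at an adjusted p of 0.01 (0 of 4334 genes, 0.00%, by edgeR and 0 by DESeq2), and 203 genes and 3 of 19 members had an unadjusted p under 0.05. Those members were Kcnh7, Kcnq5 and Kcnc2, with log2 differences, line 17 minus line 6, of 0.74, 0.56 and 0.54 and adjusted p of 0.92, 0.92 and 0.98.

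Of the auxiliary subunits, 8 of 16 were tested in CLIP, with 5 higher and 2 lower in MN, beside the 27.6% and 28.8% of all tested genes. Higher were Pex5l (log2 1.32), the Shal partners Kcnip4 (1.04), Dpp6 (0.86) and Dpp10 (0.75), and Kcnab1 (0.63). Lower were Amigo1, a Shab partner (-1.80), and Kcnab2 (-1.24). Amigo1 passed the filter on low counts only through WSC libraries, where it was higher. Pex5l had 922 ± 225 CPM in MN (SD, n = 8) and 385 ± 15.8 in WSC (SD, n = 4), without overlap, and was higher on exonic (1.99) and intronic tags (0.50) too. Kcnab1 was also called on both kinds of tags (1.00 and 0.95). For Kcnip4 the exonic value was 0.02 (adjusted p = 0.93) and the intronic one 0.24 (adjusted p = 0.0074). Neither class was called for Dpp6, at -0.54 on exonic (adjusted p = 0.011) and 0.18 on intronic tags (adjusted p = 0.13), or for Dpp10, at -0.13 (adjusted p = 0.46) and 0.19 (adjusted p = 0.077). The value of Kcnab2 was -1.26 on exonic tags and turned to 0.30 on intronic tags (adjusted p = 0.24).

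Cassette exons of the channel genes were mostly short. Lengths of 60 nt or less were found for 4 of 7, compared with 18.7% of all tabulated exons, and 4 of 7 had a length divisible by 3, compared with 45.6%. GENCODE annotates 6 of the 7, the exception being the 104-nt exon of Kcnc2. All 7 had GT and AG at the flanking splice sites. The exons with skipping reads or of special shortness read as follows, with the coordinates of each.
Kcnd3 57 nt (chr3:105469880-105469936): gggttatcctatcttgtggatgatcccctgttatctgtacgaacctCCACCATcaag
Kcnq5 57 nt (chr1:21451632-21451688): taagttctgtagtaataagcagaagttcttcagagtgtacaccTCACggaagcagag
Kcnq5 27 nt (chr1:21456464-21456490): gaaagaacaaggggaggcatcaagcag
Kcnh7 21 nt (chr2:62683811-62683831): acaatggtcgaaatgtcaaag
Kcnc2 104 nt (chr10:111893985-111894088): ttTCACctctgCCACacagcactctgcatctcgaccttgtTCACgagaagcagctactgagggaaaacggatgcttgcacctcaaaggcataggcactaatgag
The exons of Kcnd3, Kcnq5 and Kcnh7 are annotated as coding. Of all 2289 tabulated exons of up to 60 nt, 43.2% held a YCAY.

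Inclusion in WSC ranged from under 10% to complete. The inclusion rate is the mean of the 2 inclusion junction counts over that mean plus the skipping count, with 95% Wilson intervals that cover counting error only. In 4 exons at least 10 junction reads were found in each library, and 0 of these 4 differed between the libraries (Fisher's exact test, two-sided, adjusted p of at least 0.50, smallest unadjusted p = 0.075), where 4.26% of 9396 exons were called. That test compares the reads of 2 libraries, not the sexes. Its inclusion counts hold reads in the exon body and of both inclusion junctions, so it does not test the junction-based rates. The exons of Kcnh2 and Kcnh7 had no skipping read in either library, so the test could not call them. The 57-nt exon of Kcnd3 was included at 57.7% (38.9 to 74.5) and 37.5% (22.9 to 54.7). The 104-nt exon of Kcnc2 was mostly skipped, at 7.20% (2.98 to 16.4) and 9.09% (4.10 to 19.0). With reads in the exon body counted as well, its rates were 22.7% and 26.7%. In both of these exons the intervals of the libraries overlapped. Kcnh7 (21 nt) and Kcnh2 (178 nt) showed no skipping read among 70 and 17, and 275 and 209, junction reads.

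**Figure D4:**
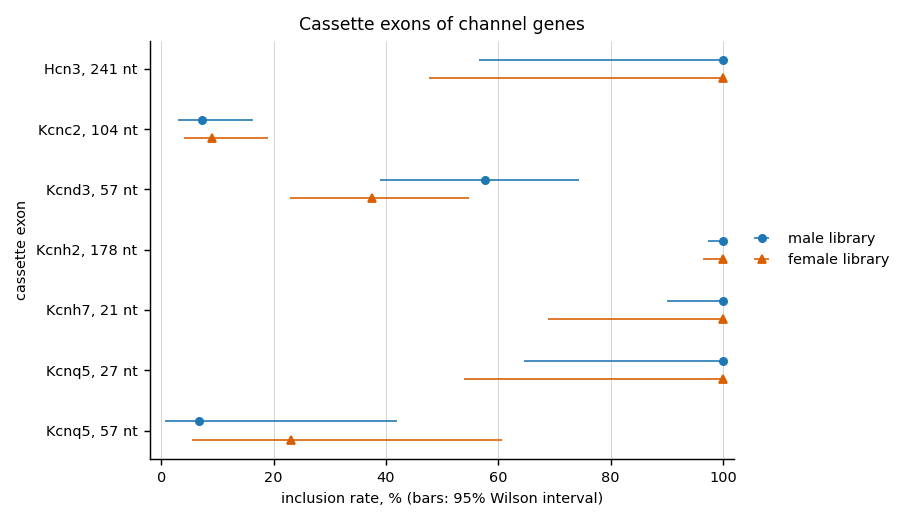
Inclusion rate, in percent, of the 7 cassette exons of channel genes in the male (circles) and female (triangles) RNA-seq libraries with 95% Wilson intervals. The exon of Kcnc2 sits at 7.20% and 9.09%, that of Kcnd3 lies at 57.7% and 37.5%, and 4 exons are at 100%.

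Another 3 exons fell under the read minimum. The 57-nt exon of Kcnq5 had 8 junction reads in each library, of which 7 and 5 showed skipping. The 27-nt exon of Kcnq5 had 14 and 9 and the 241-nt exon of Hcn3 10 and 7 junction reads, none of them skipping.

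CLIP tags within 400 nt of a cassette exon could be tested for 1 zone of a reported gene, upstream of the 104-nt exon of Kcnc2. It held 3 of 453 MN tags (0.662%) and 28 of 6391 WSC tags (0.438%) of the gene and was not called (Fisher's exact test, two-sided, p = 0.46, adjusted p = 0.74), where 16.0% of 1667 zones were called. Against the intronic tags of the gene, the shares were 0.882% and 0.930%, where 3.80% of 1263 zones were called. Tags were pooled over libraries, so these zone calls ignore the spread between libraries. An exact permutation test over the share of each library gave p = 0.95 for the Kcnc2 zone.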

How the data were processed

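The members, gene lists and tests were chosen with earlier results of these data known. For CLIP, per the labels and the study's methods, the authors mapped reads with Novoalign to mm9 and deposited unique tags as intervals whose score column was not used here (the notes of 1 library, line 6 replicate 2, also name mm10). RNA-seq reads, cut to 74 nt and aligned to mm9 by OLego, were turned by the authors into the deposited counts of reads per gene, RPKM, and counts of inclusion and skipping reads per cassette exon. Exons were placed on mm9 by matching the offsets in their names to GENCODE vM1 boundaries.

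Tags were assigned to 18979 gene models on the sense strand by midpoint, called exonic where they touched an exon, and tested with edgeR 4.0.16 (R 4.3.3, TMM, filterByExpr, quasi-likelihood test, Benjamini-Hochberg adjustment over all genes, threshold 0.01), with DESeq2 1.42.0 as an alternative. In fits of exonic or intronic tags, libraries were rescaled on those tags. Zones of 400 nt of intron beside exons and exon inclusion were tested by Fisher's exact test in scipy 1.17.1 (threshold 0.1, table margins or junction reads of at least 10). Each of these tests was run on simulated data. The simulated zones had no spread between libraries, so they could not test the effect of pooling. Log2 differences of RPKM used a pseudocount of 0.1. Each RNA-seq library came from 1 animal. Reads carry no count of molecules, so intervals cover counting error only. Where genes overlap on a strand, tags went to neither. The genes named were the 20 highest by mean RPKM, the highest of each subfamily, the members, zones and exons called or covered, and others chosen after their values were seen. Alternatives were size factors, filters, exonic or intronic tags, zone width, each line alone, thinned WSC tags, the replicate block and leaving out each library. Results for 5 genes that the rule matched are not reported here, and counts over members leave them out.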

Additional observations from a re-analysis of the deposited data

Results flagged for a closer look

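Of 36 groups of 4 libraries checked (the 12 called genes in each CLIP group), 2 held a library far from the rest by Dixon's test at the 95% level, where chance gives about 1 in 20. Hcn2 had 140 CPM (tags scaled by the library total) in MN line 17 replicate 3, against 38.6 to 46.2 in the other line 17 libraries. That value still lay below every WSC library. Kcnq5 had 623 CPM in line 17 replicate 1, the library with the fewest tags, against 328 to 371 in the other line 17 libraries.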

How the results depend on the processing

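The calls of Hcn2, Kcnh2, Kcnc1 and Kcnh7 kept their direction and stayed past the threshold under each alternative that tested them. Direction turned for Kcnh1 with exonic tags (-0.73), and for Kcnq3 (-0.38) and Kcnq5 (-0.24) with intronic tags. The cause was not tested. Without the filter on low counts, 2 of 37 members tested (5.41%) were higher and 13 (35.1%) lower. Over all 15003 genes of that fit, 1094 (7.29%) were higher and 2389 (15.9%) lower, and the median of all genes moved from -0.02 to -0.41. Intronic tags gave 1 member higher, with 330 genes higher and 359 lower, and exonic tags 3 members higher, with 520 and 514 genes, in both cases with fewer genes tested. Line 6 alone gave 3 members higher (Kcnb2, Kcnh1 and Kcnq3) and 9 lower, with 1011 genes higher and 1169 lower in all, and line 17 alone 3 higher (Kcnb2, Kcnh1 and Kcnq5) and 8 lower, with 1053 and 1149. Among the lower members, Kcna3 and Kcna4 with each line and Hcn4 with line 17 passed the filter only through WSC libraries. Kcnh2 had 0 tags in line 17 replicate 1, so with line 17 alone it too needed WSC libraries, where it was higher, to pass. The genes tested differed between these fits, so the counts are not shares. With WSC tags thinned to MN depth, 2 members were higher and 5 lower, and 396 genes higher and 496 lower, so depth limits these counts. Leaving out each library in turn gave 3 to 5 members higher, with 3 without line 6 replicate 3 or WSC replicate 1, and 6 to 9 lower, 872 to 1312 genes higher and 895 to 1454 lower, and 0 to 2 genes between the lines, where the 2 came without line 17 replicate 4. In 5 of these fits the lower members included Hcn4, which could not pass the filter without WSC libraries, where it was higher. Zones of 200 nt gave 153 calls over all genes, zones of 100 nt 49 and intronic totals 48. Leaving out a library gave 154 to 264 zones, the lowest without line 17 replicate 4.

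Replicate numbers were shared between groups, but same-numbered samples did not deviate together in every pair (r from -0.13 to 0.32). With the replicate number as a block, 4 members were higher and 6 lower, as Kcng1 (0.69) and Kcns3 (-0.78) missed the threshold, and other member calls stayed. Thinned WSC tags also ended the calls of Kcnc2, Kcnh1 and Kcnq3 and left Kcng1 and Kcns3 untested, line 17 alone ended those of Kcnc2, Kcng1, Kcnq3 and Kcns3, line 6 alone those of Kcng1 and Kcnq5, and DESeq2's Wald test that of Kcng1. Without the filter Kcng1, Kcnq3 and Kcnq5 missed the threshold, and with DESeq2's size factors Kcng1. With exon body reads counted, mean inclusion rose from 47.6% to 64.2% for the exon of Kcnd3 and from 8.15% to 24.7% for that of Kcnc2.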
